A study of Mus musculus with 8 samples.

Results

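The genes described here are the 9 that encode the DNA methyltransferases and their partners and the enzymes that remove DNA methylation: Dnmt1, Dnmt3a, Dnmt3b, Dnmt3l, Uhrf1, Tet1, Tet2, Tet3 and Tdg. They were chosen by symbol, all 9 were found among the 49315 genes of the deposited count table, and 8 of them passed the filter on low counts that left 16377 genes for testing. The exception was Dnmt3l. Hearts were dissected from C57BL/6 mouse embryos at embryonic day 9.5, and bulk RNA sequencing gave 4 libraries labelled Male and 4 labelled Female, with no treatment or engineered allele named in the labels. The sex of an embryo was assigned from Sry, the gene on the Y chromosome that starts testis development, genotyped in tissue outside the heart. Whether libraries came from separate hearts, pools or litters is not stated in the labels. The p-values therefore describe how far these libraries spread, which may be technical in part.

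DNA methylation in mammals sits mostly on cytosines followed by guanine (CpG). After replication, Uhrf1 binds the CpG sites at which only the old strand carries a methyl group and brings in Dnmt1, which copies the mark to the new strand, while Dnmt3a and Dnmt3b place methyl groups on unmethylated DNA and Dnmt3l, which has no catalytic activity of its own, stimulates them, chiefly in germ cells and the early embryo. Tet1, Tet2 and Tet3 oxidise methylcytosine with 2-oxoglutarate and iron as cofactors, and Tdg, a DNA glycosylase, cuts out the most oxidised forms so that base excision repair can put back an unmethylated cytosine.

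The promoter windows of the genes are shown because CpG is the substrate of these enzymes and because Dnmt1 and Uhrf1, the pair with the highest levels per length, hold a shared run of letters. Windows of 300 bases, from 250 before to 50 after each annotated start, came from RefSeq on GRCm38.p6, and all 9 genes matched, with 16 windows. The letters bound by E2F factors, which drive many genes of S phase, were searched as TTTCCCGC, TTTCGCGC, TTTGCCGC and TTTGGCGC on both strands. At least 1 of these 4 runs stood in 2.26% of all 32851 windows. Among the 16 windows of the 9 genes they occurred in window 3 of Dnmt1 and in window 2 of Uhrf1. The stretches below are read on the strand of the gene, with the E2F letters in capitals; in the first, GCGCGAAA is TTTCGCGC read from the other strand.
Dnmt1, chr9:20952824-20952853, minus strand: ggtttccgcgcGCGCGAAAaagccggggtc
Dnmt1, chr9:20952574-20952603, minus strand: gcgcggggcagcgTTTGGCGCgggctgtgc
Uhrf1, chr17:56304117-56304146, plus strand: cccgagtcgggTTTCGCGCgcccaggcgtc
Counted from the annotated start, with bases before it negative, the runs began at positions -219 and 33 in Dnmt1 and at position -185 in Uhrf1. Both Dnmt1 stretches overlap an exon of Dnmt1 in the GENCODE gene annotation, and the Uhrf1 stretch overlaps no exon. That annotation need not be the one used for the counts. TTTCGCGC alone stood in 0.323% of all windows, and TTTGGCGC in 0.514%. The box CCAAT, which 37.4% of all windows hold, was found in windows of Dnmt1, Uhrf1, Tet3 and Tdg. These matches describe the letters and do not show that a factor binds there.

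CpG counts in these windows ran from 2 in window 1 of Dnmt1 to 57 in the window of Tet2, against a median of 7 over all windows. The window of Tet2 held more CpG than 99.8% of all windows. Those of Dnmt3a held 46, 47 and 18, that of Dnmt3b 30, that of Tdg 26, that of Tet3 22 and that of Tet1 17. The 3 windows of Dnmt3l held 6, 4 and 3. Windows 2 and 3 of Dnmt1 held 12 and 33, and windows 1 and 2 of Uhrf1 also held 12 and 33. The 100 bases before the start are shown for Tet2, the gene with the densest window, and for window 1 of Dnmt3l, the gene with the fewest counts of the 9, with each CpG in capitals.
Tet2, chr3:133544391-133544490, minus strand: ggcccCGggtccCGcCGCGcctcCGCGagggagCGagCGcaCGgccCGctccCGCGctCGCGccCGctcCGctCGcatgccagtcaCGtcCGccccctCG
Dnmt3l, chr10:78042187-78042286, plus strand: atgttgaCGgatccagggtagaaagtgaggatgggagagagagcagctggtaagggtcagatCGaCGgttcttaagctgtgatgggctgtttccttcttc
These stretches hold 20 CpG in Tet2 and 3 in Dnmt3l. Methylation itself was not measured in these libraries.

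The libraries held 20105913 to 51134291 counts. Xist, which is transcribed from the inactive X chromosome, had 8 to 21 counts in Male libraries and 4829 to 12303 in Female libraries, and the Y-linked gene Ddx3y had 849 to 2629 counts in Male libraries and 3 to 7 in Female libraries. All 12 cardiomyocyte markers were tested, and their summed level was 43742 to 67737 CPM (counts scaled to the size of the library) in Male libraries and 40183 to 50390 CPM in Female libraries. Male replicate 2 stood apart from the other 7 libraries: on the first principal component, which held 54.6% of the variance, it lay at 71.6 and the others between -45.0 and 21.6. It also had the lowest share of counts from mitochondrial genes, 0.707%, against 0.999% to 1.72% in the other libraries. Values without it are given for some of the results that moved when it was left out, not for all. Levels are CPM after scaling by the trimmed mean of M values (TMM).

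None of the 8 tested genes passed the test between Male and Female hearts. Of all 16377 genes tested, 6 passed an adjusted p of 0.05 in edgeR's quasi-likelihood test, a share of 0.0366%, and 0 of 8 is no departure from that background. No gene of the 8 had an unadjusted p below 0.05 either, and DESeq2 and limma-voom also called 0 of them. Of all 16377 genes tested, 367 had an unadjusted p below 0.05. In the point estimates 7 of the 8 were lower in Male hearts and Tet2 was higher, and the median over them was -0.08 in log2 fold change (Male minus Female), against 0.01 over all genes tested. Of all genes tested, 47.1% were lower in Male hearts. Without Male replicate 2, 3 of the 8 were lower in Male hearts and their median was 0.01. The number of cells of a type and the RNA per cell cannot be told apart in bulk tissue.

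Dnmt1, the maintenance methyltransferase (chromosome 9, 20907209 to 20959888, minus strand of GRCm38), had 216, 139, 202 and 174 CPM in Male replicates 1 to 4, against 179, 200.4, 189 and 213 CPM in Female replicates 1 to 4. The groups overlapped: both the lowest library, Male replicate 2, and the highest, Male replicate 1, were Male. The means were 183 ± 34.0 CPM in Male hearts and 195 ± 14.6 CPM in Female hearts (SD, n = 4 each). The log2 fold change was -0.10 ± 0.14 (SE), with a 95% interval of -0.41 to 0.21 (adjusted p = 0.9995, edgeR). That interval spans folds of 0.754 to 1.16, and without Male replicate 2 the log2 fold change was 0.013.

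Uhrf1, which guides Dnmt1 (chromosome 17, 56303321 to 56323486, plus strand), had 158, 125, 158 and 144 CPM in Male replicates 1 to 4, against 142, 147, 153.5 and 169 CPM in Female replicates 1 to 4. Male replicate 2 was the lowest library and Female replicate 4 the highest, and the other 6 libraries of both sexes lay between 142 and 158 CPM. The log2 fold change was -0.07 ± 0.10 (SE; adjusted p = 0.9995, edgeR), and its 95% interval of -0.29 to 0.16 spans folds of 0.816 to 1.12.

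Dnmt3a, a de novo methyltransferase (chromosome 12, 3806007 to 3914443, plus strand), had 169, 148, 173 and 168 CPM in Male replicates 1 to 4, against 157, 165, 168 and 182 CPM in Female replicates 1 to 4. It was among the steadiest of the genes, with a coefficient of variation (CV) over the 8 libraries of 6.10%, and the groups overlapped. Its log2 fold change was -0.03 ± 0.09 (SE; adjusted p = 0.9995, edgeR), with the narrowest interval of the 8 genes, folds of 0.857 to 1.12.

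Dnmt3b, the other de novo methyltransferase (chromosome 2, 153649450 to 153687730, plus strand), had 12.5, 15.6, 13.1 and 11.9 CPM in Male replicates 1 to 4, against 15.2, 14.2, 12.6 and 15.9 CPM in Female replicates 1 to 4. The groups overlapped, and Male replicate 2 was here the second highest library. In log2 fold change Dnmt3b differed by -0.12 ± 0.12 (SE; 95% interval -0.39 to 0.14; adjusted p = 0.9995, edgeR), and by -0.22 without Male replicate 2. Counting error was larger for this gene, 3.39% to 6.34% of its value in a library, against 0.927% to 1.64% for Dnmt1.

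Dnmt3l, the inactive partner of Dnmt3a and Dnmt3b (chromosome 10, 78041947 to 78063622, plus strand), had 0, 1, 2 and 5 counts in Male replicates 1 to 4, against 5, 0, 3 and 3 counts in Female replicates 1 to 4. With 19 counts in all 8 libraries it was at or near the floor of 3 counts that a count of 0 allows, and no fold is given. Aire overlaps it on the opposite strand by 67 bases of exon and had 125 counts. Without a stated strand setting, reads of the overlap cannot be assigned to either gene. Dnmt3c, a rodent paralog of Dnmt3b known from the male germ line, had 15 counts in the 8 libraries.

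Tet1 (chromosome 10, 62804570 to 62899118, minus strand), a Tet enzyme with a CpG-binding CXXC domain, had 15.8, 12.7, 15.9 and 15.0 CPM in Male replicates 1 to 4, against 15.4, 17.2, 13.7 and 16.6 CPM in Female replicates 1 to 4. Male replicate 2 was the lowest library, Female replicate 3 the second lowest, and the groups overlapped. Its log2 fold change was -0.09 ± 0.11 (SE; 95% interval -0.34 to 0.16; adjusted p = 0.9995, edgeR), and -0.02 without Male replicate 2.

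Tet2 (chromosome 3, 133463679 to 133545139, minus strand), whose protein lacks a CXXC domain, had 15.8, 13.1, 14.4 and 12.8 CPM in Male replicates 1 to 4, against 13.3, 12.9, 13.0 and 14.5 CPM in Female replicates 1 to 4. It was the gene with a point estimate higher in Male hearts, and the groups overlapped. In log2 fold change it differed by 0.06 ± 0.10 (SE; 95% interval -0.17 to 0.29; adjusted p = 0.9995, edgeR).

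Tet3 (chromosome 6, 83362373 to 83459084, minus strand), the Tet enzyme known for oxidising the paternal genome in the zygote, had 59.6, 39.6, 54.8 and 49.2 CPM in Male replicates 1 to 4, against 52.6, 49.1, 45.1 and 56.4 CPM in Female replicates 1 to 4. Its means were 50.8 ± 8.59 CPM in Male hearts and 50.8 ± 4.85 CPM in Female hearts (SD, n = 4 each). The log2 fold change was -0.0021 ± 0.13 (SE; adjusted p = 0.9995, edgeR), and its 95% interval spans folds of 0.814 to 1.23. Without Male replicate 2 the log2 fold change was 0.098.

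Tdg, the glycosylase that acts after the Tet enzymes (chromosome 10, 82629828 to 82650799, plus strand), varied most. It had 71.1, 33.6, 71.0 and 55.6 CPM in Male replicates 1 to 4, against 61.3, 65.4, 62.2 and 89.1 CPM in Female replicates 1 to 4. Male replicate 2 was lowest and Female replicate 4 highest, a 2.65-fold range, while the other 6 libraries lay between 55.6 and 71.1 CPM. The means were 57.8 ± 17.7 CPM in Male hearts and 69.5 ± 13.2 CPM in Female hearts (SD, n = 4 each). The log2 fold change was -0.27 ± 0.23 (SE; 95% interval -0.79 to 0.25; adjusted p = 0.9995, edgeR), so folds of 0.580 to 1.19 lie within the interval. It was -0.08 without Male replicate 2 and -0.12 without Female replicate 4. Glt8d2 overlaps Tdg on the opposite strand by 367 bases of exon and had 150 counts against 18157 for Tdg, and the copies Tdg-ps and Gm9855 had 15 and 17 counts.

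**Figure D1:**
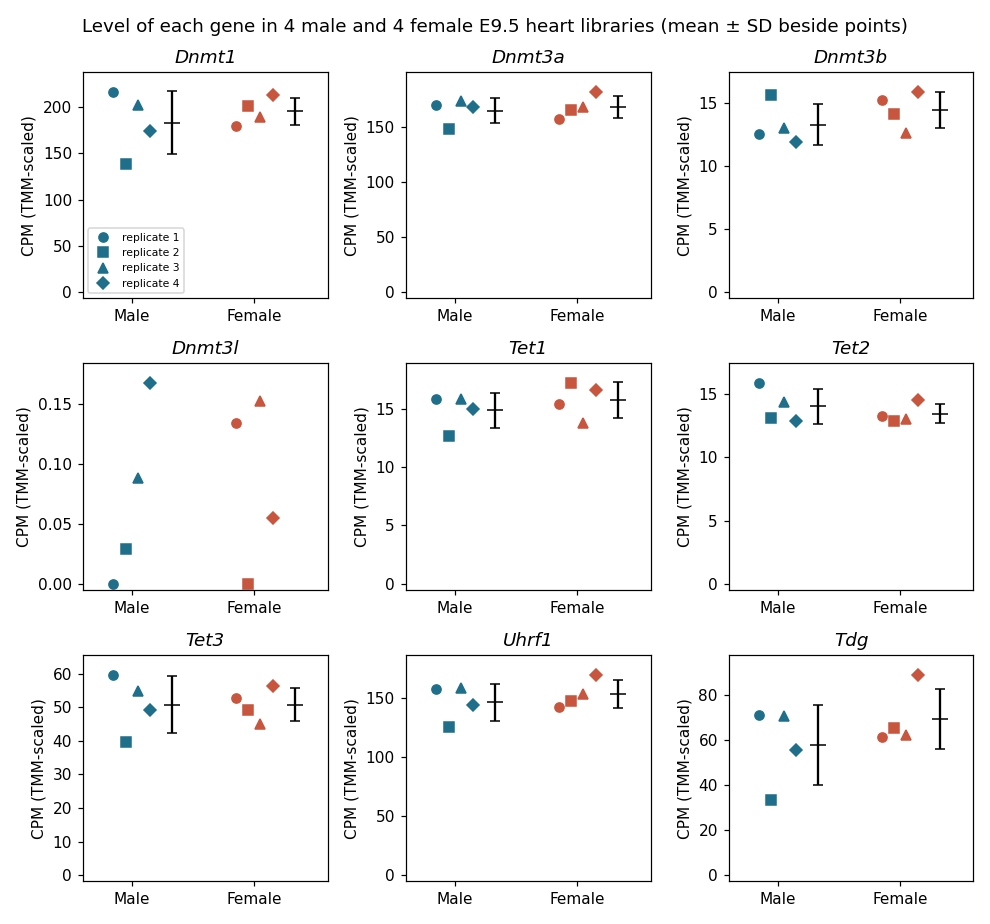
CPM after TMM scaling (linear axis) of the 9 genes in 4 Male (left, blue) and 4 Female (right, red) libraries, each marker shape being a replicate number. Bars beside the points are the mean and SD of 4 libraries, left out for Dnmt3l, which had 0 to 5 counts a library; the groups overlap for every gene.

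**Figure D2:**
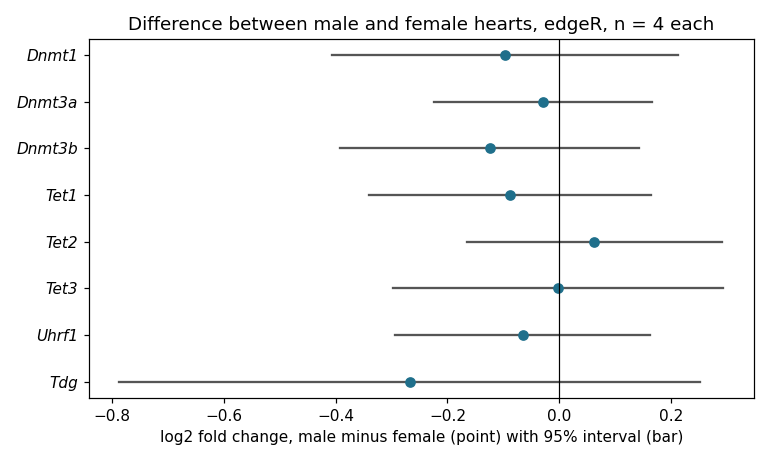
Log2 fold change, Male minus Female, of the 8 tested genes from edgeR (point) with its 95% interval (bar), 4 libraries a group. Every interval crosses 0, that of Dnmt3a is the narrowest and that of Tdg the widest.

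Levels of different genes were compared as CPM per kilobase of the exon length used in the counting. Over all 8 libraries Uhrf1 stood highest at 35.2 ± 3.11 CPM per kb (SD, n = 8), followed by Dnmt1 at 25.6 ± 3.41, Tdg at 11.8 ± 2.93 and Dnmt3a at 9.99 ± 0.609 CPM per kb. Tet3 at 3.04 ± 0.387 and Dnmt3b at 2.72 ± 0.305 CPM per kb came next, with Tet1 at 1.04 ± 0.10 and Tet2 at 0.814 ± 0.0638 CPM per kb lowest. Per length, the maintenance genes thus stood above the de novo enzymes, and the glycosylase above the 3 Tet enzymes. In CPM not divided by length, Dnmt3a at 166 ± 10.1 stood above Uhrf1 at 150 ± 13.3 CPM in 8 of 8 libraries (exact sign-flip test, adjusted p = 0.0182), and Tet1 above Dnmt3b in 7 of 8 (exact, adjusted p = 0.118). The order per length was the same in Male libraries alone, in Female libraries alone, and when each library was left out.

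Of the 7 neighbouring pairs in this order, 5 differed within libraries in the same direction in 8 of 8 libraries (exact sign-flip test, 2-sided, p = 0.00781, the smallest that 8 libraries allow; adjusted p = 0.0109 over 7 pairs). The order and these differences come from the same values. Tdg and Dnmt3a were not separated beyond their spread (Tdg higher in 7 of 8 libraries, 1.15-fold; exact p = 0.117, adjusted p = 0.137), and neither were Tet3 and Dnmt3b (Tet3 higher in 7 of 8 libraries, 1.12-fold; exact p = 0.141, adjusted p = 0.141). In both pairs Male replicate 2 was the lowest library for the leading gene, and without it all 7 pairs passed (exact p = 0.0156, adjusted p = 0.0156, n = 7).

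The counted length joins the exons of all transcripts of a gene. For Tet2 it was 16870 bases against 9179 bases for the longest coding transcript, and for Tet1 14710 against 14369 bases. With the transcript length in its place, Tet2 lay above Tet1, at 1.5 ± 0.117 against 1.06 ± 0.103 CPM per kb (SD, n = 8), so the order of these genes depends on the length used. The order of the other 6 genes was the same with either length, but Tet3 then stood above Dnmt3b in 8 of 8 libraries (1.45-fold; exact sign-flip test, adjusted p = 0.00911). Tdg and Dnmt3a were not separated with that length either (1.03-fold; exact adjusted p = 0.734).

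**Figure D3:**
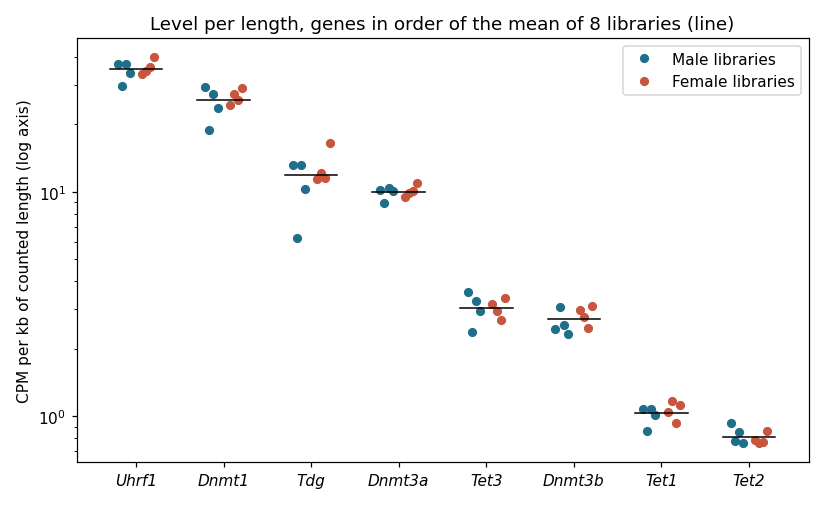
CPM per kilobase of counted length (log axis) of the 8 tested genes, in order of their mean over 8 libraries (line), with Male libraries left in blue and Female libraries right in red. Uhrf1 is highest at 35.2 and Tet2 lowest at 0.814 CPM per kb; the ranges of Tdg and Dnmt3a, of Tet3 and Dnmt3b, and of Tet1 and Tet2 overlap.

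Within the catalytic Dnmt family, per length, Dnmt1 made up 66.1% ± 3.73 of the transcripts in Male hearts and 67.2% ± 0.826 in Female hearts (SD, n = 4 each). Dnmt3a made up 26.7% ± 2.10 in Male hearts and 25.6% ± 0.625 in Female hearts, and Dnmt3b 7.17% ± 1.88 in Male hearts and 7.21% ± 0.697 in Female hearts. Male replicate 2 had the smallest Dnmt1 share of the 8 libraries, 61.2%, and the largest Dnmt3b share, 9.96%. Among the Tet enzymes Tet3 held 62.1% ± 2.07 in Male hearts and 61.9% ± 1.36 in Female hearts. Tet1 held 20.8% ± 1.06 in Male hearts and 21.8% ± 1.44 in Female hearts, and Tet2 held 17.2% ± 1.51 in Male hearts and 16.3% ± 0.854 in Female hearts. With the longest coding transcript as length, Tet3 still held most of the Tet transcripts, 64.4% ± 1.63 over the 8 libraries, but Tet2 then held more than Tet1, 20.8% ± 1.47 against 14.8% ± 0.979. Dnmt1 likewise held most of the Dnmt transcripts, 61.0% ± 2.60.

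Ratios of these genes within a library, which do not depend on the depth of the library, were compared between the sexes for 9 pairs or sums. None passed: the exact permutation test over the 70 divisions of 8 libraries, 2-sided, gave adjusted p-values of 0.6 to 0.943, with no unadjusted p below 0.05. No p below 0.0286 is possible with 4 libraries against 4. After adjustment over 9 ratios a lone ratio therefore could not pass, however far apart the groups stood. The smallest p belonged to Tdg over Tet3, which was 3.71, 2.64, 4.03 and 3.51 in Male replicates 1 to 4, against 3.62, 4.14, 4.29 and 4.9 in Female replicates 1 to 4. The means were 3.47 ± 0.595 in Male hearts and 4.24 ± 0.529 in Female hearts (SD, n = 4 each; exact p = 0.0857, adjusted p = 0.6), and the groups overlapped. On the log2 scale the difference was -0.30, and -0.17 without Male replicate 2. The summed methyltransferases Dnmt1, Dnmt3a and Dnmt3b over the summed Tet enzymes came to 7.63 ± 0.0999 in Male hearts and 8.05 ± 0.538 in Female hearts (exact p = 0.2, adjusted p = 0.6).

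Dnmt3b over Dnmt1 was 0.0839, 0.163, 0.0936 and 0.0993 in Male replicates 1 to 4, against 0.123, 0.102, 0.0965 and 0.108 in Female replicates 1 to 4. Male replicate 2 was thus the highest library, while the other 3 Male libraries lay at or below 0.0993, a range that held Female replicate 3 as well. The log2 difference of this ratio, Male minus Female, was -0.011 over all 8 libraries and -0.22 without Male replicate 2. Dnmt3a over Dnmt3b was lowest in Male replicate 2, at 2.90, and 3.16 to 4.32 in the other 7 libraries. Uhrf1 over Dnmt1 was the steadiest of the ratios between single genes, at 1.38 ± 0.0944 over the 8 libraries (SD; CV 6.83%).

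The genes differed in how much they varied. CVs over the 8 libraries were 6.10% for Dnmt3a, 7.83% for Tet2, 8.85% for Uhrf1, 9.66% for Tet1, 11.2% for Dnmt3b, 12.7% for Tet3, 13.3% for Dnmt1 and 24.7% for Tdg. Set beside genes of like level (within 0.5 on the log2 scale), Tdg had a larger SD of log2 CPM than 96.0% of 2176 genes. Dnmt3a had a larger SD than 15.4% of such genes and Tet2 than 11.9%. The other genes lay between, Dnmt1 at 63.1%, Tet3 at 61.9%, Uhrf1 at 38.9%, Dnmt3b at 34.9% and Tet1 at 28.3%. Without Male replicate 2 the CV of Tdg was 15.9%, that of Dnmt1 8.25% and that of Dnmt3a 4.39%.

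Male replicate 2 was the lowest library for 6 of the 8 genes, Dnmt1, Dnmt3a, Tet1, Tet3, Uhrf1 and Tdg, and it was also the lowest for 33.4% of all tested genes. Its level over the mean of the other 7 libraries was 0.494 for Tdg, 0.708 for Dnmt1, 0.756 for Tet3, 0.809 for Tet1, 0.819 for Uhrf1 and 0.875 for Dnmt3a. For Tet2 it was 0.948 and for Dnmt3b 1.15. Female replicate 4 was the highest library for 4 of the 8 genes, Dnmt3a, Dnmt3b, Uhrf1 and Tdg, and for 21.1% of all tested genes. These libraries also bounded the share of mitochondrial counts, at 0.707% in Male replicate 2 and 1.72% in Female replicate 4.

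**Figure D4:**
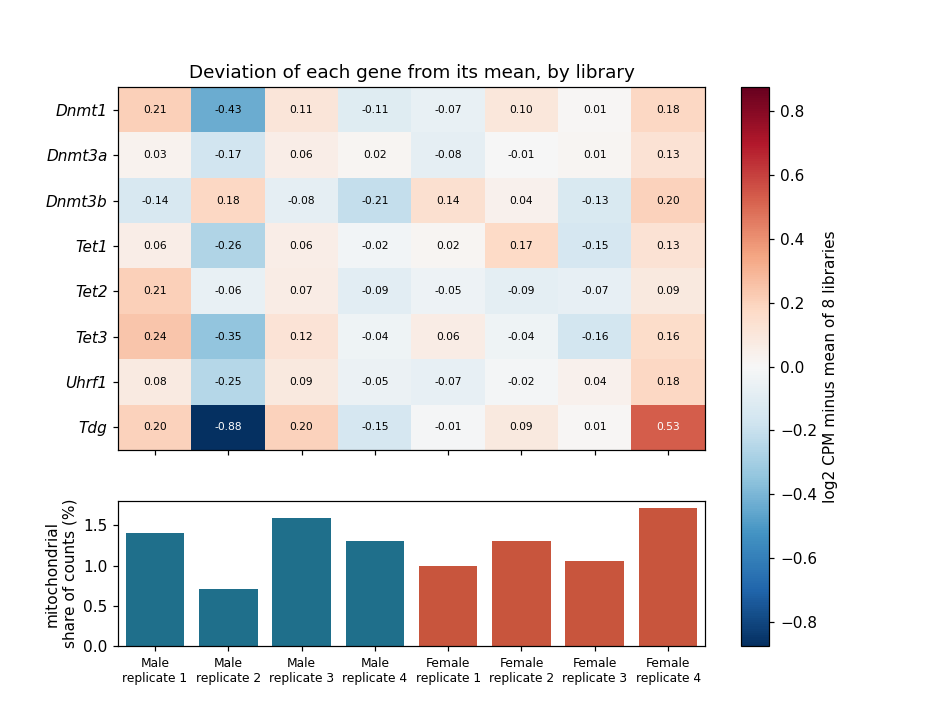
Deviation of log2 CPM of the 8 tested genes from their mean over 8 libraries (colour, values in the cells), Male libraries left and Female libraries right, with the percent of counts from mitochondrial genes as bars underneath. Tdg is lowest in Male replicate 2 and highest in Female replicate 4, the libraries with the smallest and largest mitochondrial share, while Dnmt3b is above its mean in both.

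Over all 8 libraries as a set, 12 of 28 pairs had a correlation of log2 CPM that passed an adjusted p of 0.05 (exact permutation over all pairings, 2-sided), all positive. They were 12 of the 15 pairs among Dnmt1, Dnmt3a, Uhrf1, Tdg, Tet1 and Tet3; the pairs among these 6 that did not pass were Dnmt3a with Tet3 (r = 0.725, adjusted p = 0.0892, exact), Tet1 with Uhrf1 (r = 0.68, adjusted p = 0.122, exact) and Dnmt3a with Tet1 (r = 0.673, adjusted p = 0.122, exact). The strongest were Uhrf1 with Tdg (Pearson r = 0.960, exact p adjusted to 0.00509; Spearman rho = 0.929, adjusted p = 0.0208) and Dnmt1 with Tdg (r = 0.958, adjusted p = 0.00451; rho = 0.976, adjusted p = 0.0111; exact). Dnmt3a with Uhrf1 followed (r = 0.957, adjusted p = 0.00451; rho = 0.929, adjusted p = 0.0208; exact), and then Dnmt1 with Uhrf1, the maintenance pair (r = 0.933, adjusted p = 0.0116; rho = 0.881, adjusted p = 0.0507; exact). The other 8 pairs that passed had r between 0.794 and 0.907. Such r values were common in the whole table. For the 12 pairs, the share of all tested genes with a higher r to the same gene ran from 0.989% to 19.4%. The lowest share was that of genes closer to Dnmt1 than Tdg was, and the highest that of genes closer to Uhrf1 than Tet3 was.

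Without Male replicate 2, 0 of the 28 pairs passed, and r of the 12 pairs ranged from 0.520 to 0.918. Counts were also lower without Male replicate 1 (7 pairs), without Male replicate 3 (4 pairs) and without Female replicate 4 (4 pairs). Without Male replicate 3 r itself hardly moved, with a lowest value among the 12 pairs of 0.780 against 0.794 over all 8 libraries. With the 2 libraries farthest from the median left out, Dnmt1 with Tdg had r = 0.769 (exact p = 0.0597), Uhrf1 with Tdg r = 0.820 (exact p = 0.0556), Dnmt3a with Uhrf1 r = 0.780 (exact p = 0.0292) and Dnmt1 with Uhrf1 r = 0.785 (exact p = 0.0667), none adjusted. Many genes followed the same libraries: 10.7% of all tested genes had r of at least 0.9 with Tdg, 8.37% with Uhrf1, 8.27% with Dnmt3a and 7.93% with Dnmt1. For Tet3 the share was 2.56% and for Tet1 1.34%.

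No pair with Dnmt3b or Tet2 passed. Dnmt3b had r between -0.29 and -0.01 with the other 7 genes. The r of Tet2 was highest with Tet3, at 0.76 (exact adjusted p = 0.0522), just short of the threshold. Of all tested genes, 1.36% were closer to Tet2 than Tet3 was. Without Male replicate 2 the r of Tet2 was 0.896 with Tet3 (exact p = 0.00833, not adjusted), though no pair passed there. Its r with Dnmt1 rose from 0.614 to 0.798, while that with Tet1 fell from 0.366 to 0.295. Few genes of the whole table followed either: 0.0733% had r of at least 0.9 with Dnmt3b and 0.0611% with Tet2.

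**Figure D5:**
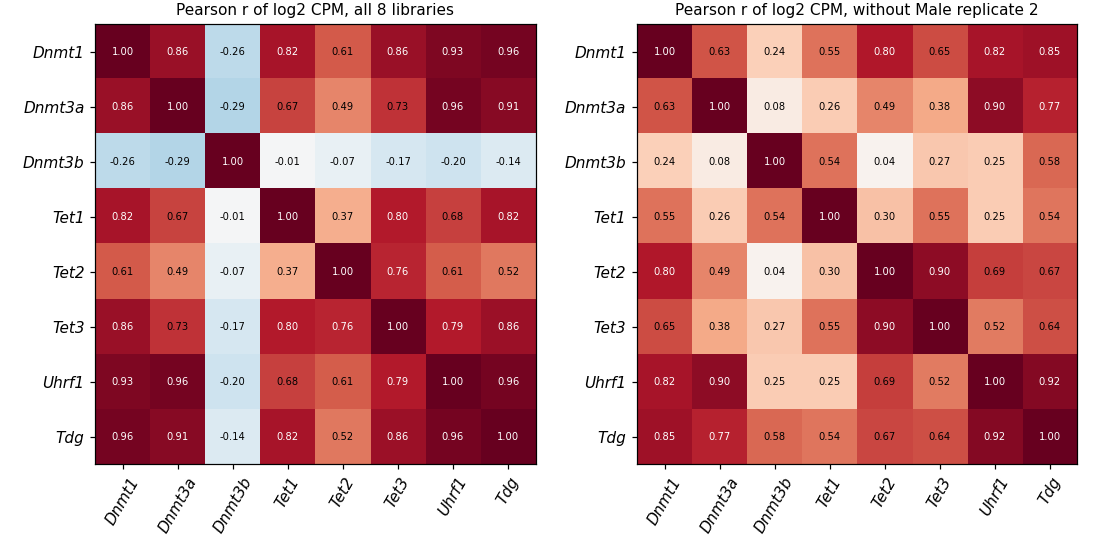
Pearson r of log2 CPM between the 8 tested genes over all 8 libraries (left) and over the 7 libraries without Male replicate 2 (right), with r in the cells and red for positive, blue for negative values. Dnmt3b is negative with every other gene on the left and between 0.04 and 0.58 on the right, where Uhrf1 with Tdg still reads 0.918.

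The share of mitochondrial counts was related to the levels of the same 6 genes. This relation was looked at after seeing the data. The share ranked the 8 libraries in the reverse order of the first principal component, which held 54.6% of the variance over all genes tested. How many of all tested genes follow the share was not counted, so the relation is not shown to be particular to these genes. Pearson r with that share was 0.940 for Dnmt3a (adjusted p = 0.00317), 0.893 for Uhrf1 (adjusted p = 0.00946), 0.875 for Tdg (adjusted p = 0.00946) and 0.846 for Dnmt1 (adjusted p = 0.0131), each by exact permutation over 8 libraries and adjusted over 8 relations. It was 0.812 for Tet3 and 0.798 for Tet1 (adjusted p = 0.0221 each, exact), and the rank correlations of these 6 genes, 0.762 to 0.929, passed as well. Dnmt3b (r = -0.186) and Tet2 (r = 0.582) did not pass. Without Male replicate 2, 1 of the 8 relations passed, and without Male replicate 2 and Female replicate 4 together r ranged from 0.503 to 0.801 for the 6 genes. The part of the mitochondrial share in the levels was not tested.

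Each gene was also set against the mean standardised level of 4 lists, S phase and mitosis, cardiomyocyte, foregut and pharyngeal epithelium, and erythroid, and 0 of 32 relations passed over the 8 libraries (lowest adjusted p = 0.165, exact). The strongest was Tdg with the cardiomyocyte list, r = -0.895 (exact p = 0.00600, adjusted p = 0.165; rho = -0.690). It was -0.681 without Male replicate 2 and -0.404 without Male replicate 2 and Female replicate 4 (exact p = 0.437). Dnmt3b with that list had r = -0.132 over all 8 libraries and -0.901 without Male replicate 2, where 0 of the 32 relations passed. Male replicate 2 had the highest cardiomyocyte sum, 67737 CPM, and Female replicate 4 the lowest, 40183 CPM. Of the single libraries left out, only Female replicate 1 gave relations that passed, with Male replicate 2 still in. These were 4, all with the cardiomyocyte list: Tdg at r = -0.98, Uhrf1 at -0.97, Dnmt3a at -0.95 and Dnmt1 at -0.92 (adjusted p = 0.0254 for the first pair and 0.0429 for the second, exact, n = 7). Without Female replicate 1 and Male replicate 2 together, 0 relations passed. With the S phase and mitosis list, Tdg had r = 0.796 over all 8 libraries, Dnmt1 0.726 and Uhrf1 0.685. Without Male replicate 2 these values were 0.44, 0.26 and 0.25.

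For each gene, the 3 genes of at least 10 CPM whose log2 CPM followed it most closely over the 8 libraries were picked from 9235 genes. For Dnmt3b they were Hells (r = 0.976), Asb7 (r = 0.951) and Nsd2 (r = 0.942), and r without Male replicate 2 was 0.977, 0.979 and 0.957. Hells, a chromatin remodeller needed for normal DNA methylation in mice, and Nsd2, a histone H3 lysine methyltransferase, stand in the lists of maintenance cofactors and of histone methylation below. For Tet2 they included Sepsecs (r = 0.912) and Kalrn (r = 0.90).

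For each of the other 6 genes, the closest match over the 8 libraries had a higher r than Hells had with Dnmt3b. The 3 closest were Ccnb1 (cyclin B1, r = 0.998), Pim3 (0.996) and Fanci (0.994) for Tdg. For Uhrf1 they were Zfp768 (0.995), Dennd2a (0.992) and Ptpn9 (0.992), and those for Dnmt3a included Cbfa2t2 (0.989) and Micu2 (0.986). For Dnmt1 they were Aco1 (0.987), Pop1 (0.986) and Recql (0.985), for Tet3 Rictor (0.997), Cep55 (0.974) and Bahcc1 (0.973), and for Tet1 Fam8a1 (0.984), Gnb1 (0.978) and 4833439L19Rik (0.98). These r values are descriptions over 8 libraries, taken as the highest of many.

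The other genes of the pathway were read from lists, and in the Male against Female comparison 0 genes of any list passed (edgeR, lowest adjusted p = 0.9995; 0 by DESeq2 and limma-voom as well). Among the maintenance cofactors 10 of 11 had lower and 1 higher point estimates in Male hearts, with a median of -0.11 on the log2 scale. Of these cofactors 0 had an unadjusted p below 0.05, against 367 of all 16377 genes tested. Of all genes tested, 47.1% were lower in Male hearts. Without Male replicate 2 the cofactors had 10 of 11 lower and a median of -0.10. Pcna, the sliding clamp of replication, had 204 ± 39.0 CPM in Male hearts and 248 ± 11.4 CPM in Female hearts, and Lig1, the DNA ligase of replication, 190 ± 50.2 CPM in Male hearts and 177 ± 18.5 CPM in Female hearts (SD, n = 4 each). The S phase and mitosis genes had 23 of 27 lower in Male hearts and a median of -0.13, also with 0 below an unadjusted p of 0.05. Without Male replicate 2 that median shrank to -0.07, with 24 of 27 lower. Top2a, a topoisomerase, had 297 ± 19.1 CPM in Male hearts and 315 ± 19.0 CPM in Female hearts, and Mcm7, a subunit of the replicative helicase, 248 ± 3.85 CPM in Male hearts and 264 ± 11.2 CPM in Female hearts.

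Genes that supply the methyl donor had 9 of 13 lower in Male hearts (median -0.05, 0 below an unadjusted p of 0.05). Mat2a, which makes S-adenosylmethionine, had 227 ± 9.91 CPM in Male hearts and 232 ± 12.2 CPM in Female hearts, and Ahcy, which clears its product, 167 ± 27.5 CPM in Male hearts and 184 ± 15.7 CPM in Female hearts (SD, n = 4 each). The enzymes of histone methylation that guide the methyltransferases had 7 of 12 lower (median -0.03, 1 below an unadjusted p of 0.05), but 3 of 12 without Male replicate 2 (median 0.08) or without Female replicate 4 (median 0.03). Ehmt2 had 156 ± 16.1 CPM in Male hearts and 148 ± 10.3 CPM in Female hearts, and Nsd2 133 ± 6.83 CPM in Male hearts and 136 ± 2.90 CPM in Female hearts. Among 11 tested partners of the Tet enzymes 5 were lower (median 0.01, 0 below an unadjusted p of 0.05), and 7 without Male replicate 2 (median -0.06). Ogt, the sugar transferase that binds Tet proteins, had 90.8 ± 9.69 CPM in Male hearts and 94.0 ± 10.8 CPM in Female hearts, and its substrate Hcfc1 87.1 ± 16.6 CPM in Male hearts and 90.1 ± 9.32 CPM in Female hearts.

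Genes listed for 2-oxoglutarate supply and neighbouring steps had 8 of 12 lower (median -0.02, 1 below an unadjusted p of 0.05), but 3 of 12 without Male replicate 2 (median 0.04) or without Female replicate 4 (median 0.03). Idh2 stood at 466 ± 78.5 CPM in Male hearts and 465 ± 62.0 CPM in Female hearts, and Sdha at 325 ± 39.3 CPM in Male hearts and 340.4 ± 39.4 CPM in Female hearts (SD, n = 4 each). Base excision repair, which follows Tdg, had 6 of 12 lower (median 0.00460, 1 below an unadjusted p of 0.05). Parp1 stood at 242 ± 13.9 CPM in Male hearts and 244 ± 19.2 CPM in Female hearts, and Xrcc1 at 105 ± 13.3 CPM in Male hearts and 99.0 ± 12.2 CPM in Female hearts. In the list of methyl-CpG readers and their relatives 4 of 8 genes were lower (median 0.08, 1 below an unadjusted p of 0.05), and 2 of 8 without Male replicate 2 or without Female replicate 4. Mbd3 had 431 ± 141 CPM in Male hearts and 382 ± 60.7 CPM in Female hearts, and Male replicate 2 was its highest library, at 641 CPM.

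Genes known to protect imprints had 2 of 5 lower (median 0.04, 0 below an unadjusted p of 0.05), with Trim28 at 709 ± 60.1 CPM in Male hearts and 691 ± 47.0 CPM in Female hearts and Ctcf at 77.2 ± 2.77 CPM in Male hearts and 80.8 ± 5.68 CPM in Female hearts (SD, n = 4 each). Dppa3 had 0 counts. Of 16 germline genes known to be silenced by DNA methylation in somatic cells, 4 passed the filter on low counts, and the sum of all 16 was 2.83 to 5.21 CPM in Male libraries and 3.26 to 3.98 CPM in Female libraries. Ddx4 had 1.96 ± 0.502 CPM in Male hearts and 1.48 ± 0.0595 CPM in Female hearts, and Brdt 0.882 ± 0.343 CPM in Male hearts and 0.963 ± 0.136 CPM in Female hearts. Tex101, Rpl10l and Dpep3 had 0 counts in all 8 libraries.

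Cell type lists give the tissue around these genes. Beside the counts below, 367 of all 16377 genes tested had an unadjusted p below 0.05. Among cardiomyocyte markers 11 of 12 had higher point estimates in Male hearts (median 0.23, 3 below an unadjusted p of 0.05), and 6 of 12 without Male replicate 2 (median 0.03). Actc1 had 11431 ± 310.1 CPM in Male hearts and 11673 ± 1195 CPM in Female hearts, and Myl7 7409 ± 3010 CPM in Male hearts and 6301 ± 1347 CPM in Female hearts (SD, n = 4 each). Markers of foregut and pharyngeal epithelium had 13 of 14 lower in Male hearts (median -0.74, 1 below an unadjusted p of 0.05), 6 of 13 tested without Female replicate 1 (median 0.05) and 13 of 13 without Male replicate 2 (median -1.36). Their sum ran from 239 to 566 CPM in Male libraries and from 250 to 476 CPM in Female libraries, and 6 of the 14 reached 1 CPM in every library. Endothelial markers had 5 of 10 lower, erythroid markers 3 of 12, hepatic and yolk sac markers 6 of 8 tested, and neural crest and neural tube markers 3 of 5 tested, with 0 below an unadjusted p of 0.05 in these lists. These directions turned with single libraries: 0 of 8 hepatic and yolk sac markers were lower without Female replicate 1 (median 0.92) and 2 of 8 by limma-voom, 9 of 12 erythroid markers were lower without Male replicate 3 or without Female replicate 1, and 1 of 10 endothelial markers was lower without Female replicate 4 and 7 of 10 without Male replicate 1. Of the pluripotent and germ cell list 5 of 10 passed the filter, with 4 of them lower, and Pou5f1, a pluripotency factor, had 0 counts. The part of these cell types in the levels of the 9 genes was not tested.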

How the data were processed

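RNA was extracted with Trizol and sequenced from an Illumina TruSeq RNA kit, per the labels' protocols. The submitters' processing notes name Trimmomatic 0.36, STAR 2.5.2b, featureCounts from Subread 1.5.2 and the mouse build GRCm38 (mm10). The annotation release, the use of strand and the handling of multi-mapped reads are not stated in those notes or in the labels. The deposited counts are whole numbers per gene, the same in the tables per library and in the series table. The authors also deposited a normalised signal, which equals the counts divided by 1 factor per library for 16460 genes, and it was used as an alternative.

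Differences between the sexes were fitted by edgeR 4.0.16 under R 4.3.3 (minimum count of 10 in filterByExpr, TMM, robust quasi-likelihood, Benjamini-Hochberg over 16377 genes, adjusted p below 0.05), with DESeq2 1.42.0 and limma 3.58.1 as alternatives, and the steps were tested on simulated data. Levels over length, ratios and correlations used Python 3.11.15 and scipy 1.17.1 with exact permutation tests; 4 libraries against 4 cannot give a p below 0.0286. Correlations used log2 CPM with a prior count of 2. Totals of 20105913 to 51134291 counts per library set the precision, and floors (3 counts) and counting errors cover counting error only. Promoter sequences are RefSeq's.

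The 9 genes and the lists were chosen with earlier results of these data known. Beside the 9, the text names the 2 most abundant genes of each pathway list and of the cardiomyocyte and proliferation lists, the 3 closest genes by correlation, and Xist and Ddx3y; some genes that this rule picks are not reported here. Genes with 0 counts, overlapping genes and copies were named after their values were seen. Pairs of libraries of a sex differed by a chi-square of 7.93 to 192 per gene, so none was counted as a duplicate.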

Additional observations from a re-analysis of the deposited data

Results flagged for a closer look

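Over 34 sets of 4 libraries of a sex (levels of the 8 tested genes and 9 ratios, in each sex), 2 had a library whose gap to the nearest other over the whole range was above Dixon's 95% critical value for 4 samples; chance gives about 1 in 20. The ratio of Tet2 to Tet3 was 0.328 in Male replicate 2, against 0.258 to 0.263 in the other 3 Male libraries. Tdg had 89.1 CPM in Female replicate 4, against 61.3 to 65.4 CPM in the other 3 Female libraries.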

How the results depend on the processing

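None of the 8 tested genes was called between the sexes under any alternative run, nor was any ratio or list gene, and 5 (replicate block) to 9 (DESeq2) genes of the whole table were called against 6. The ratio test could not call a lone ratio in any run, and none at all with Female replicate 1 and Male replicate 2 left out together. Deviations of same-numbered libraries from the mean of their sex correlated at -0.417 to -0.00616. No pairing by replicate number was seen in these values, but a small shared effect could be missed, so pairing stays unknown. No gene of the 8 or of the lists was called with the block, and a sign-flip test of 4 pairs cannot reach the threshold. Of 136 alternative fold changes, 124 kept their sign and 12 did not. On the log2 scale Tet3 read 0.0031 with RLE size factors, 0.0060 with at least 1 CPM in 4 libraries and 0.11 without Female replicate 1 and Male replicate 2. With 1 library left out, Dnmt1 ranged from -0.19 to 0.013, Dnmt3a from -0.055 to 0.018, Tet2 from -0.00043 to 0.10, Tet3 from -0.088 to 0.098 and Uhrf1 from -0.11 to 0.00072, while Tdg (-0.38 to -0.08), Dnmt3b (-0.22 to -0.08) and Tet1 (-0.14 to -0.02) kept their sign. Among alternative ratios, 99 kept their sign and 9 did not: Dnmt3b over Dnmt1 was 0.0025 as a linear difference, and without Female replicate 1 and Male replicate 2 Uhrf1 over Dnmt1 was -0.0021 and Tet2 over Tet3 -0.034. With 1 library left out these ratios ranged from -0.22 to 0.10, from -0.0080 to 0.094 and from -0.011 to 0.11. Pairs called were 21 with library size alone, 3 with Spearman's rho, 0 without Female replicate 1 and Male replicate 2, and 0 to 12 with 1 library left out. Relations to lists were 0 to 4, and those to the mitochondrial share 1 to 6 with 1 library left out and 0 without both libraries. The medians of the base excision repair, imprint protection and neural crest lists also changed sign with single libraries left out. The cause was not tested. Dnmt3l had too few counts to pass the filter of the main test. It had 3 counts in Female replicate 4, the deepest library, and 3 in Female replicate 3, the shallowest.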
